A study of Mus musculus with 6 samples.

Results

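The genes described here are 10 secreted inhibitors of Wnt signalling, chosen by name from a list (Sfrp1, Sfrp2, Sfrp4, Sfrp5, Frzb, Dkk1, Dkk2, Dkk3, Wif1 and Notum), among 18193 genes read on the Affymetrix Mouse Genome 430 2.0 array. They are read by 18 probe sets annotated to 1 of these genes alone, the brightest of which stands for its gene while the other 8 serve as a check. The tissue came from wild-type embryos of the FVB/N strain at embryonic day 13 (Theiler stage 21), sex unknown, and comprised the urethra with the bladder neck, cut near the ureters (the labels differ on the exact level). Its epithelium (arrays numbered 1, 2 and 5) was compared with its mesenchyme (arrays 1, 2 and 3) after trypsin digestion and separation with a needle, so both layers went through the same handling. Samples were not pooled, and the labels do not tie arrays to separate embryos, so p-values measure only the spread between these arrays, which may be technical. All RNA went through 2 rounds of amplification.

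Wnt proteins are secreted lipid-modified ligands that bind Frizzled receptors and the co-receptors Lrp5 and Lrp6, which leads to accumulation of beta-catenin and transcription through Tcf and Lef factors. Secreted inhibitors act outside the cell, either by binding the Wnt protein (the secreted frizzled-related proteins, among them Frzb, and Wif1), by occupying the co-receptor (the Dickkopf proteins Dkk1 and Dkk2), or by cutting off the ligand's lipid (the enzyme Notum). In the developing lower urinary tract and genital region, Wnt signals pass between the endoderm-derived epithelium and the surrounding mesenchyme, and such inhibitors limit where they act.

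The table holds 1 signal per probe set and array, and its median lay between 126 and 254 on the single arrays. Values below are quantile-normalized signal units, and differences are log2(signal + 16), epithelium minus mesenchyme, with limma's standard error, so a negative value is lower in epithelium. Epithelial markers (10 genes) summed to 156643 to 185380 units on the epithelial arrays and 2573 to 67344 on the mesenchymal arrays, and mesenchymal markers (10 genes) to 25036 to 44531 in epithelium and 170251 to 220310 in mesenchyme, so the labels fit the markers but neither layer was free of the other's transcripts. Mesenchyme 1 stood apart. Across genes it correlated at r = 0.784 and 0.755 with mesenchyme 2 and 3, which correlated at 0.981 with each other. Its epithelial markers summed to 67344 units against 12317 and 2573 on mesenchyme 2 and 3, and 8 markers of other organs to 246723 units against at most 1293 on any other array. Results on the inhibitors are therefore given with and without that array.

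Over all 6 arrays, Dkk1 alone among the 9 inhibitors that passed the filter on dim probe sets was past the threshold of adjusted p 0.05, at a lower level in epithelium, where 5.98% of 13717 tested genes passed (4.03% lower and 1.95% higher in epithelium). Without mesenchyme 1, 6 of the same 9 passed, against 14.5% of 13587 tested genes. Frzb, Dkk1, Dkk2, Sfrp1 and Sfrp2 were lower in epithelium (8.17% of tested genes were called in that direction), and Notum was higher in epithelium (6.37%). Notum passed the filter through its epithelial signal, its mesenchymal values lying near or below the filter level. Its call was lost in limma without the filter (adjusted p = 0.0576). The arrays of the layers did not overlap for 4 members with all arrays, where this held for 28.8% of genes. Of the 4, 3 were lower in epithelium (13.2% of genes) and 1 higher (15.5%). Without mesenchyme 1 they did not overlap for 7 members, where this held for 45.4% of genes, 6 of them lower in epithelium (22.3%) and 1 higher (23.1%). The median log2 difference of the 9 was -0.58 with all arrays and -0.79 without mesenchyme 1, beside 0.12 and 0.02 over all tested genes. Sfrp4 did not pass the filter. In these bulk samples, fewer cells of a type and less RNA per cell cannot be told apart. These counts rest on few arrays. With mesenchyme 1 already set aside, limma called 3 members when epithelium 1 was left out (1253 of 13625 tested genes). It called 6 when epithelium 2 was left out (3878 of 13580 genes) and 6 when epithelium 5 was (1848 of 13570). Leaving out mesenchyme 2 or 3 as well left 1 mesenchymal array, and most of the members' calls ended there.

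**Figure D1:**
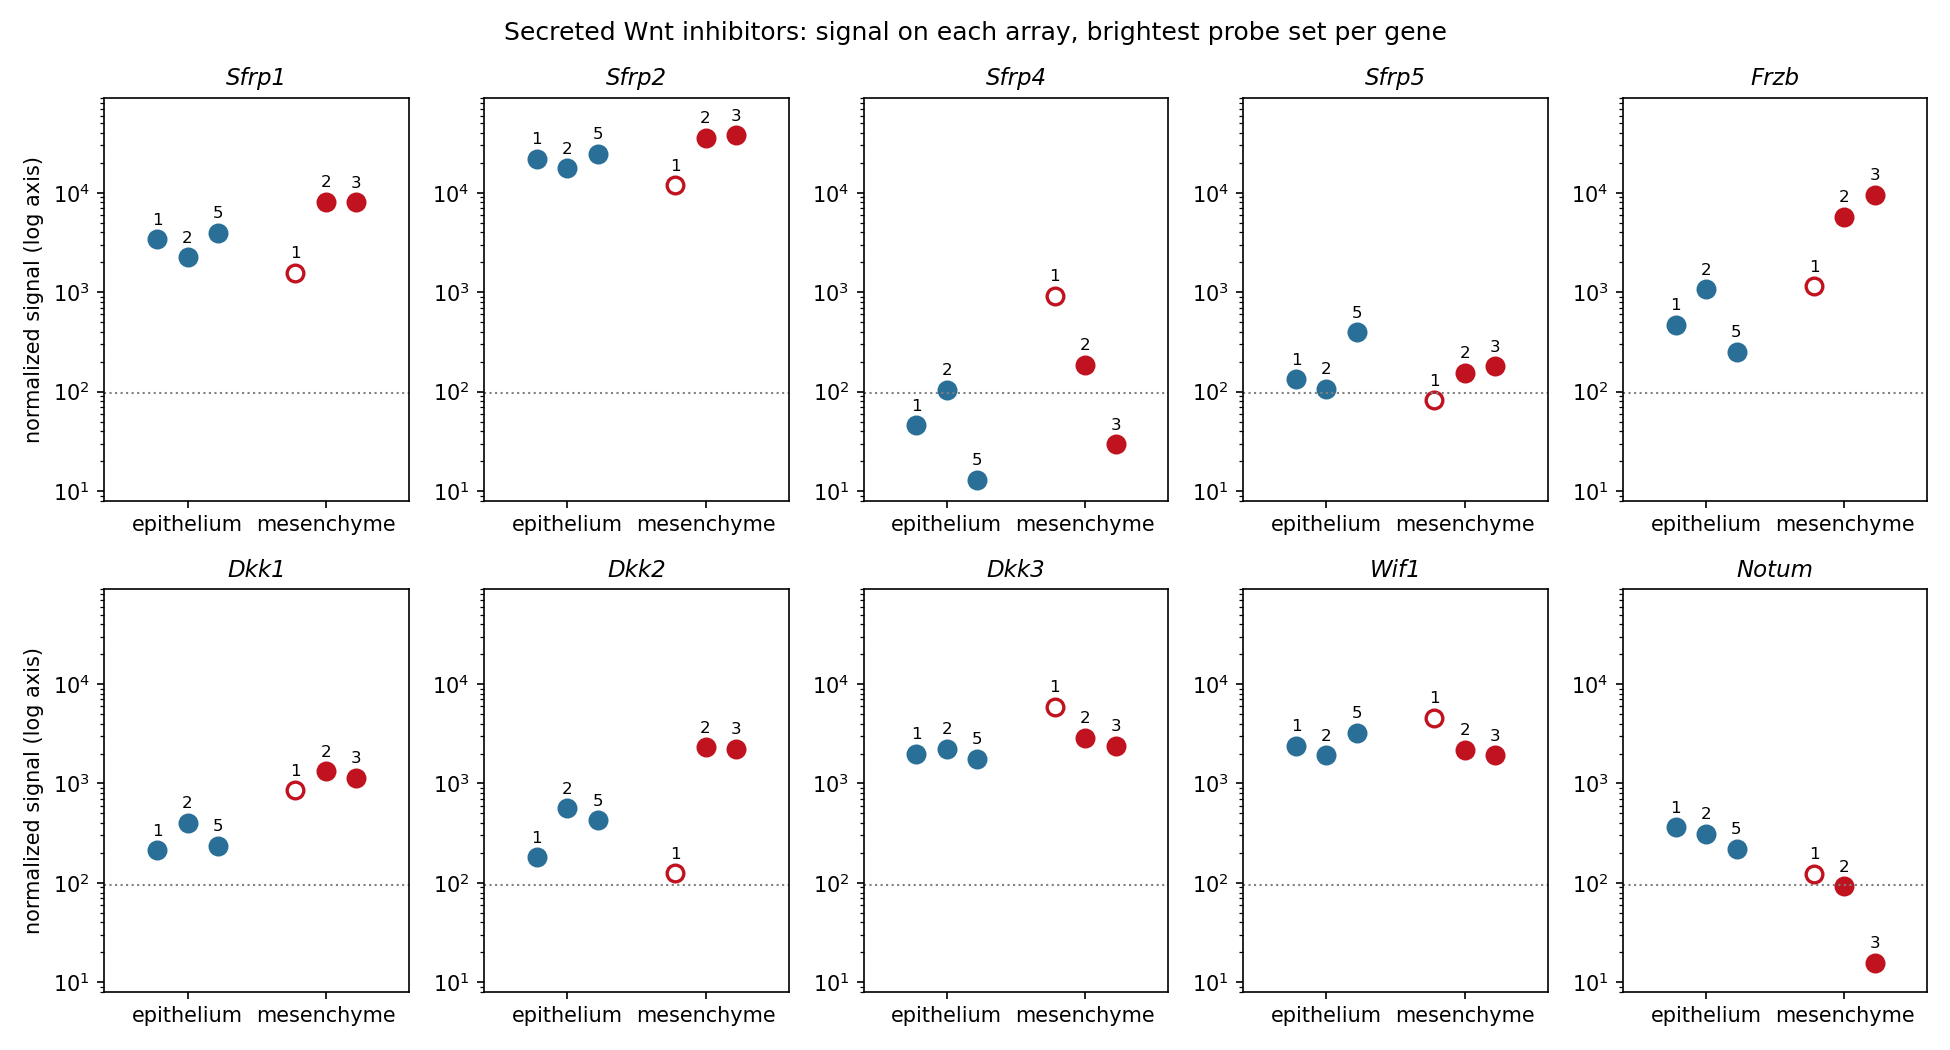
Normalized signal (log axis) of the 10 inhibitors on each array, by the brightest probe set. Points are single arrays labelled with their number, epithelium in blue on the left and mesenchyme in red on the right, the open red point being mesenchyme 1 and the dotted line the level of the filter, 96.3 units. Frzb, Dkk1, Dkk3 and Notum show no overlap between the layers, and Dkk2, Sfrp1 and Sfrp2 overlap only through mesenchyme 1.

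Promoter sequences (RefSeq, GRCm38.p6, 250 bases before to 50 after the start of the gene) were at hand for 6 members, Sfrp2, Sfrp5, Frzb, Dkk1, Dkk2 and Wif1. Those of Dkk1, Dkk2 and Frzb are shown because these were, among the members that passed the filter, those with the largest differences toward mesenchyme in both fits. They are printed 5′ to 3′ on the gene's strand, and capitals mark matches on either strand to CTTTGAA or CTTTGAT (forms of the Tcf/Lef site), TATAAA (the TATA box) or GGGCGG (the GC box), none of which overlap here. The motifs were chosen with the sequences in view. The Dkk1 window is chr19:30549447-30549746 (minus strand), that of Dkk2 is chr3:132085042-132085341 (plus strand) and that of Frzb is chr2:80447347-80447646 (minus strand).
Dkk1: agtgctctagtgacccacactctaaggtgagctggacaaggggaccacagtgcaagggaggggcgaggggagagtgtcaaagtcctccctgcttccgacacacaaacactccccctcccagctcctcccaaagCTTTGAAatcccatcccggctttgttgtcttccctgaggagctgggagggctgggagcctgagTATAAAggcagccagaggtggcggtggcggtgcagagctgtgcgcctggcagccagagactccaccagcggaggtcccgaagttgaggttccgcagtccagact
Dkk2: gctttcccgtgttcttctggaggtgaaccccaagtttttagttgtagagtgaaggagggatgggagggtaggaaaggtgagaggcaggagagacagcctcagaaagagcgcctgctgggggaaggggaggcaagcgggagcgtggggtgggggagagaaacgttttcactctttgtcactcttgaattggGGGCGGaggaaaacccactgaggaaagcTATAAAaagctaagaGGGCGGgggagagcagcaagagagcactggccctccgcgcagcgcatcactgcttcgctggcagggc
Frzb: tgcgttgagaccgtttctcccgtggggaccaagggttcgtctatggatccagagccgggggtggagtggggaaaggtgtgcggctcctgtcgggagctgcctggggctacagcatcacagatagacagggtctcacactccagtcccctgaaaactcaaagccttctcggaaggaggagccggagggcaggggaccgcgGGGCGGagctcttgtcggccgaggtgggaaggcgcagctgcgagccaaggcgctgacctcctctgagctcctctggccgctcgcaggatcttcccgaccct

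Of the 6 promoters, that of Dkk1 was the 1 with a Tcf/Lef match, CTTTGAA beginning 117 bases before the start, where 8.65% of 32851 promoters in the table hold such a match. Dkk1 also had TATAAA 54 bases before the start and Dkk2 had it 32 bases before, with Wif1 holding its reverse complement (13.6% of promoters hold either). GGGCGG or its complement stood in Dkk2, Frzb, Wif1 and Sfrp5 (35.7% of promoters). A match describes these letters only and is not a measured binding site, and 4 members (Sfrp1, Sfrp4, Dkk3 and Notum) were not searched. All 6 windows were richer in G and C than the median promoter (52.7%), from 57.7% in Dkk2 to 66% in Sfrp2.

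Among the Dickkopf genes, Dkk1 (probe set 1420360_at), the inhibitor that binds Lrp5 and Lrp6 and can remove them from the cell surface together with Kremen proteins, read 212, 401 and 235 units (283 ± 103, SD, n = 3) on epithelium 1, 2 and 5, against 856, 1328 and 1144 (1109 ± 238, n = 3) on mesenchyme 1, 2 and 3. Every mesenchymal array lay above every epithelial one, mesenchyme 1 included. The difference was -1.94 ± 0.388 (SE, 3.85-fold, adjusted p = 0.0317), and -2.18 ± 0.358 (4.54-fold, adjusted p = 0.00745) without mesenchyme 1. The call over all arrays ended in limma without epithelium 1 (adjusted p = 0.159), epithelium 5 (0.13), mesenchyme 2 (0.152) or mesenchyme 3 (0.115), with differences between -1.77 and -1.88. It ended as well with median centring (0.0507) and without the filter (0.0534), and over the 16 alternatives adjusted p ran from 0.00745 to 0.413. Without mesenchyme 1 it ended when mesenchyme 2 (-2.07, adjusted p = 0.0938) or mesenchyme 3 (-2.27, adjusted p = 0.076) was left out as well. Its other probe set read 56.3, 82.7 and 72.6 units in epithelium against 173, 925 and 1365 in mesenchyme. Those epithelial values lay below the filter level of 96.3 units, so that set passed the filter through mesenchyme and its fold is uncertain. That second reading had the same direction, with a difference of -2.87 ± 0.738 (adjusted p = 0.0918) over all arrays and -3.80 ± 0.373 (adjusted p = 0.00183) without mesenchyme 1, each adjusted over all probe sets.

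Dkk2 (1420512_at), a relative that can inhibit or activate the pathway depending on the cell, read 181, 563 and 428 units on epithelium 1, 2 and 5, against 125, 2314 and 2221 on mesenchyme 1, 2 and 3. Mesenchyme 2 and 3 lay above all epithelial arrays and mesenchyme 1 lay below them. With all arrays the difference was -1.29 ± 1.10 (adjusted p = 0.566), with a 95% interval from -3.86 to 1.29, and without mesenchyme 1 it was -2.70 ± 0.475 (6.50-fold, adjusted p = 0.00971). That call ended when mesenchyme 2 (-2.67, adjusted p = 0.0819) or mesenchyme 3 (-2.72, adjusted p = 0.0833) was left out too. Of all members, Dkk2 moved most on mesenchyme 1, 16.2-fold below the mean of mesenchyme 2 and 3 on the log scale.

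Dkk3 (1417312_at), a divergent member of the family that does not act through Lrp6 in the way Dkk1 does, read 1997, 2239 and 1766 units in epithelium, against 5922, 2890.4 and 2393 in mesenchyme. The layers did not overlap, but the gap between epithelium 2 and mesenchyme 3 was small, and the highest value was that of mesenchyme 1. The difference of -0.79 ± 0.393 did not pass (adjusted p = 0.329, interval -1.71 to 0.13), nor did that of -0.41 ± 0.251 without mesenchyme 1 (adjusted p = 0.377). Its other probe set gave -0.96 ± 0.361 (adjusted p = 0.247 in limma) with all arrays and -0.84 ± 0.341 (adjusted p = 0.213) without mesenchyme 1.

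Of the secreted frizzled-related proteins, which carry a Wnt-binding domain like that of the Frizzled receptors, Frzb (1416658_at) differed most between the layers. It read 473, 1075 and 252 units on epithelium 1, 2 and 5, against 1146, 5717 and 9621 on mesenchyme 1, 2 and 3. Mesenchyme 1 lay only just above epithelium 2, while mesenchyme 2 and 3 lay far above all other arrays. The difference was -2.94 ± 0.853 (7.66-fold, adjusted p = 0.104, interval -4.94 to -0.94) with all arrays, and -3.91 ± 0.592 (15.0-fold, adjusted p = 0.00548) without mesenchyme 1. That call ended when mesenchyme 3 was left out too (-3.55, adjusted p = 0.0603). Its dimmer probe set gave -2.03 ± 0.960 (adjusted p = 0.359) and -2.66 ± 0.922 without mesenchyme 1 (adjusted p = 0.147), in the same direction and not past the threshold.

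Sfrp1 (1448395_at) read 3416, 2258 and 3937 units in epithelium, against 1570.1, 8077 and 8032 in mesenchyme, and again mesenchyme 1 lay below the epithelial arrays and the other pair above them. The difference was -0.58 ± 0.650 (adjusted p = 0.66, interval -2.11 to 0.95) with all arrays and -1.37 ± 0.291 (2.59-fold, adjusted p = 0.0204) without mesenchyme 1. The probe sets of Sfrp1 did not give the same size. The 2 dimmer ones that passed the filter gave 0.01 ± 0.601 and -0.19 ± 0.540 with all arrays, and -0.72 ± 0.263 (adjusted p = 0.166) and -0.78 ± 0.332 (adjusted p = 0.237) without mesenchyme 1. The mean of its probe sets gave -0.96 (adjusted p = 0.194) without that array, so the call rests on the brightest probe set, and it was also lost there without epithelium 1 (-1.45, adjusted p = 0.0695), mesenchyme 2 (adjusted p = 0.177) or mesenchyme 3 (adjusted p = 0.179). Its other 2 probe sets were too dim to be tested.

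Sfrp2 (1448201_at) was bright in both layers, at 21886, 17619.6 and 24700.3 units in epithelium against 11903, 35685 and 37963 in mesenchyme. The epithelial arrays lay between mesenchyme 1 and the other mesenchymal arrays. The difference was -0.25 ± 0.437 (adjusted p = 0.783, interval -1.28 to 0.77, and 0.16 with median centring) with all arrays and -0.79 ± 0.170 (1.73-fold, adjusted p = 0.0217) without mesenchyme 1. This smallest of the 6 differences past the threshold without mesenchyme 1 missed it there with median centring (-0.54, adjusted p = 0.117), without normalization (-0.51, adjusted p = 0.256), without a variance trend (adjusted p = 0.101) and without epithelium 1 (adjusted p = 0.0791), mesenchyme 2 (0.15) or mesenchyme 3 (0.212).

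The remaining frizzled-related genes were dim (probe sets 1436075_at for Sfrp5 and 1451031_at for Sfrp4). Sfrp5 read 133, 107 and 396 units in epithelium, against 81.7, 154 and 179 in mesenchyme, with overlapping layers and a difference of 0.41 ± 0.607 (adjusted p = 0.743, interval -1.02 to 1.83), and of 0.12 ± 0.593 (adjusted p = 0.935) without mesenchyme 1. Its other probe set gave 0.27 (adjusted p = 0.878) with all arrays and -0.10 (adjusted p = 0.962) without mesenchyme 1. That set was highest on epithelium 1 (307 units) rather than epithelium 5, so the probe sets did not order the epithelial arrays alike. Sfrp4 read 45.9, 103.9 and 13.0 units in epithelium, against 926, 187 and 29.6 in mesenchyme, and stood below the filter. Its high value was that of mesenchyme 1, 9.80-fold above mesenchyme 2 and 3, and a fit without the filter gave -1.78 ± 1.11 (adjusted p = 0.485) with all arrays and -0.67 ± 0.829 (adjusted p = 0.728) without mesenchyme 1.

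Wif1 (1425425_a_at), which binds Wnt proteins through its own conserved domain, read 2404, 1920.0 and 3256 units in epithelium, against 4583, 2174 and 1918 in mesenchyme. The layers overlapped with and without mesenchyme 1, which held the highest value. The difference was -0.12 ± 0.416 (adjusted p = 0.9, interval -1.09 to 0.86), and 0.28 ± 0.298 (adjusted p = 0.636, interval -0.43 to 0.98) without mesenchyme 1, so its sign turned with that array and neither value passed.

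Notum (1451857_a_at), the esterase that removes the palmitoleate lipid from Wnt proteins and is itself a known beta-catenin target, was the only member tested whose arrays all lay higher in epithelium, in both fits. It read 362, 313 and 221 units on epithelium 1, 2 and 5, against 123, 92.7 and 15.8 on mesenchyme 1, 2 and 3. The mesenchymal values lay near or below the filter level of 96.3 units, and Notum passed the filter on the mean over arrays through its epithelial signal, so its fold rests on mesenchymal values not shown to be above background. The difference was 1.98 ± 0.652 (3.95-fold, adjusted p = 0.147) with all arrays and 2.38 ± 0.608 (5.21-fold, adjusted p = 0.0424) without mesenchyme 1, and that call was lost with an offset of 1 (adjusted p = 0.0575), without the filter (0.0576) and without epithelium 1 (0.145) or mesenchyme 3 (0.284). Its probe set, like that of Wif1, is of a kind that can match several transcripts. No other probe set was at hand to check Notum, and the same held for Sfrp2, Sfrp4, Dkk2 and Wif1.

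**Figure D2:**
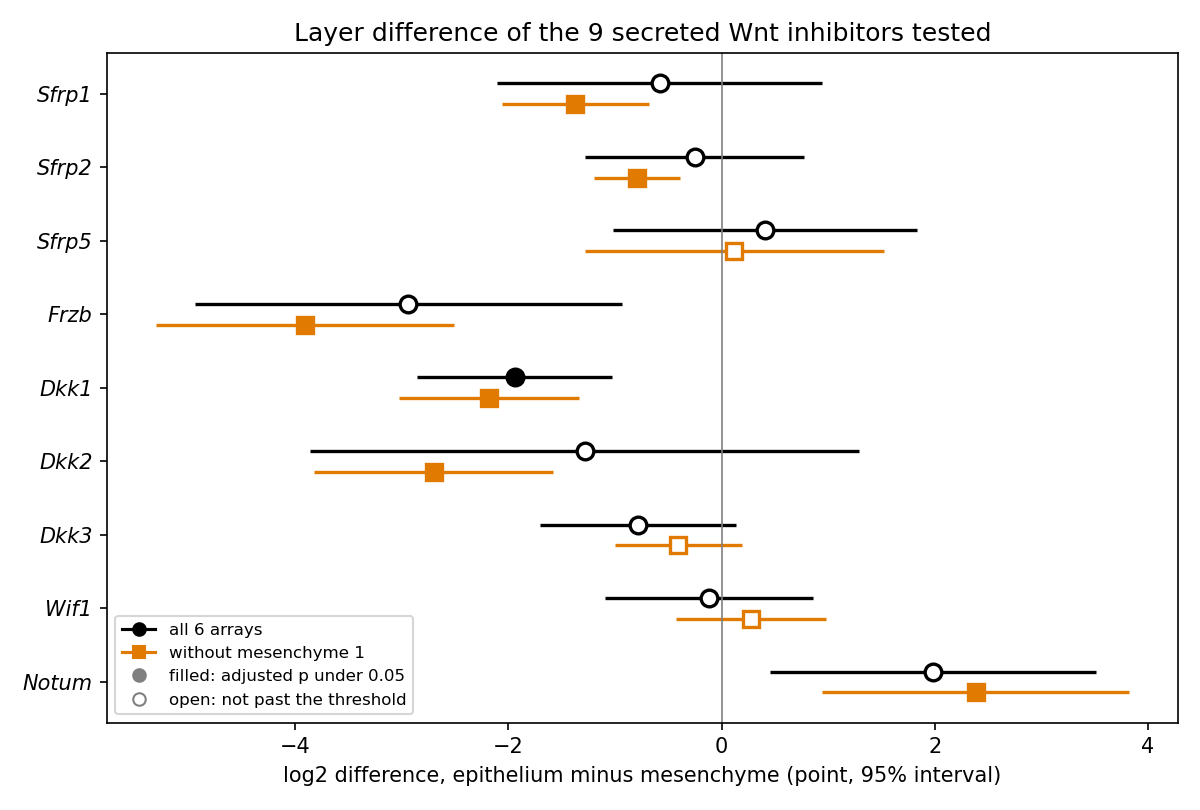
Log2 difference, epithelium minus mesenchyme, of the 9 tested inhibitors with limma's 95% interval, over all 6 arrays (black circles) and without mesenchyme 1 (orange squares). Filled points have adjusted p under 0.05. Dkk1 is filled in both fits, Frzb reaches -3.91 without mesenchyme 1, and the intervals of Sfrp5, Dkk3 and Wif1 include 0 in both.

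The check by other probe sets covered 5 members with 6 further tested probe sets. Of these, 5 had the sign of the brightest probe set over all arrays and 1, of Sfrp1, did not, and without mesenchyme 1 again 5 did and 1, of Sfrp5, did not. Frzb, Dkk1 and Dkk3 were lower in epithelium on every tested probe set in both fits. Only the brightest set of Dkk1 passed in both, and no set of Dkk3 passed in either. The second set of Dkk1 lay below the filter level of 96.3 units on every epithelial array. That of Frzb lay below it on epithelium 1 and 5 (86.6 and 4.71 units). Both passed the filter mainly through mesenchyme, so they are a weak check and the size of their differences is uncertain.

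**Figure D3:**
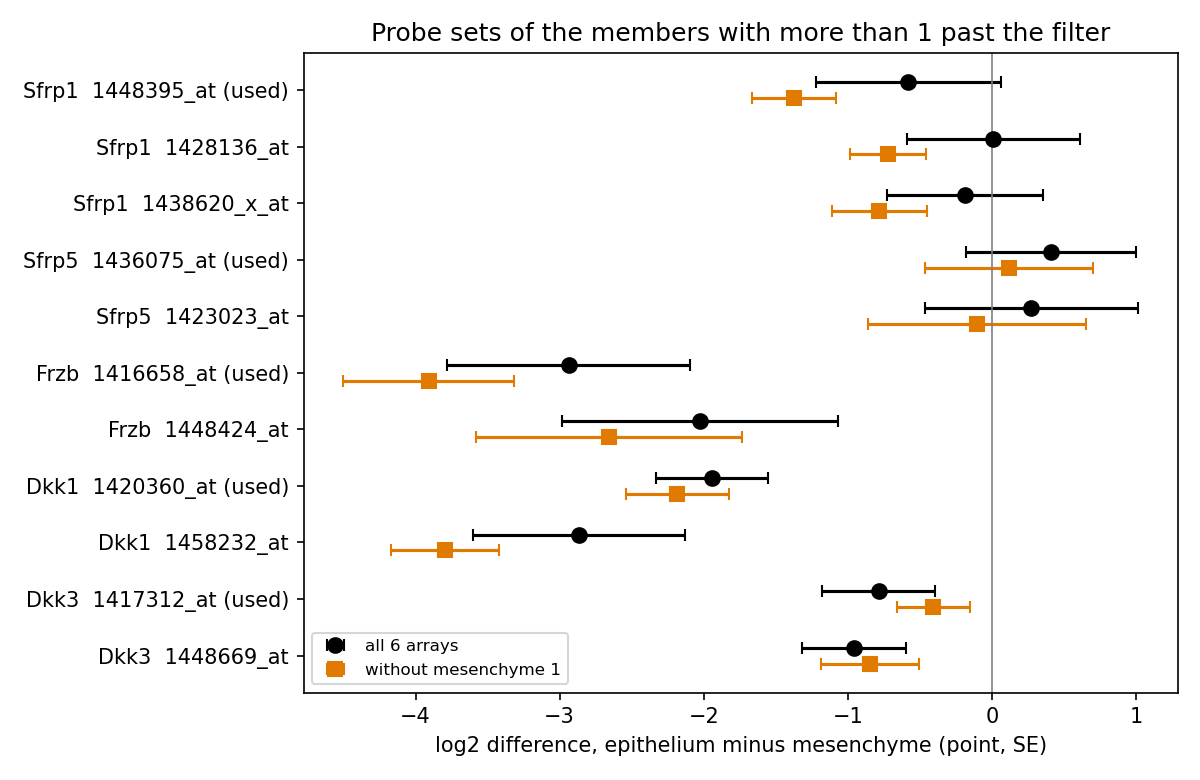
Log2 difference, epithelium minus mesenchyme, with limma's SE for each tested probe set of the 5 members that have more than 1, over all 6 arrays (black circles) and without mesenchyme 1 (orange squares). Over all arrays the Dkk1 and Frzb sets lie between -2.94 and -1.94, and the Sfrp1 and Sfrp5 sets between -0.58 and 0.41.

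Mesenchyme 1 differed over 2-fold from the mean of mesenchyme 2 and 3 (log scale) for 7 of the 9 tested members, where this held for 38.5% of tested genes. Of the 7, Dkk2, Frzb, Sfrp1 and Sfrp2 were lower on mesenchyme 1 (16.2-, 6.40-, 5.09- and 3.09-fold) and Notum, Dkk3 and Wif1 higher (2.36-, 2.24- and 2.23-fold). Over all tested genes 22.7% were lower on mesenchyme 1 by that measure. Dkk1, at 1.43-fold lower, and Sfrp5, at 1.86-fold lower, stayed within 2-fold. These placements are those of the brightest probe sets. The other tested sets of Dkk1 and Sfrp5 were 6.04- and 2.18-fold lower, past 2-fold, and that of Dkk3 was only 1.33-fold higher. Those of Frzb and Sfrp1 were over 2-fold lower, like their brightest sets. As this array also carried transcripts of epithelium and of other organs, its part in these differences was not tested.

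Summed markers of other cell types also differed between the layers. Endothelial markers (6 genes) summed to 719 to 2249 units in epithelium and 12622 to 16247 in mesenchyme, neuronal markers (5 genes) to 502 to 980 in epithelium and 24336 to 34269 in mesenchyme, and smooth muscle markers (6 genes) to 4866 to 10810 in epithelium and 24443 to 51878 in mesenchyme. Most of the smooth muscle sum was Acta2 (38894, 27431 and 20284 units on mesenchyme 1, 2 and 3). Myocd overlapped between the layers, at 85.3 units on mesenchyme 1 and 258 on epithelium 2. Striated muscle markers (6 genes) summed to 538 to 961 in epithelium and 12681 to 96706 in mesenchyme. Blood markers (5 genes) summed to 2381 to 6363 in epithelium and 8135 to 36137 in mesenchyme, but did not all go the same way. Most of the mesenchymal sum was Csf1r (27484, 7168 and 5105 units on mesenchyme 1, 2 and 3). Hbb-bh1 and Hba-x were lowest on mesenchyme 1 (7.84 and 13.4 units), and Adgre1 and Ptprc overlapped between the layers. The sum of glial markers (3 genes) was higher in epithelium, at 17090 to 24551 against 6895 to 12048 in mesenchyme, nearly all of it from Erbb3. Foxd3 went the other way (30.6, 15.9 and 121 units in epithelium against 129, 260 and 281 in mesenchyme). Sox10 differed little (0.14, adjusted p = 0.886 in limma over all arrays). Of the endothelial, neuronal and smooth muscle lists, 3 to 6, 2 to 3 and 3 to 5 genes stood above the filter level on the epithelial arrays. Their part in the lower epithelial levels of Dkk1, Dkk2 and Frzb was not tested. Within the epithelium, Dkk1, Dkk2 and Frzb were each highest on epithelium 2. That array had the highest sum of mesenchymal markers (44531 units, against 25036 and 37425 on epithelium 1 and 5), but the markers did not all go that way. Col3a1, Pdgfra, Twist1, Prrx1 and Lum were highest on epithelium 2, and Col1a1, Col1a2, Pdgfrb, Twist2 and Dcn on epithelium 5. The part of mesenchymal transcripts in the order of Dkk1, Dkk2 and Frzb was likewise not tested. Sfrp1 and Sfrp2 instead were lowest on epithelium 2 among the epithelial arrays.

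Other genes of the pathway give the setting of these inhibitors. Of 71 genes in 6 lists, 54 were tested over all arrays and 10 passed, and 19 of 57 passed without mesenchyme 1. Over all tested genes, 5.98% passed with all arrays (1.95% higher and 4.03% lower in epithelium). Without mesenchyme 1, 14.5% passed (6.37% higher and 8.17% lower in epithelium). The 10 became 3 when epithelium 1 or epithelium 5 was left out, 7 for epithelium 2, 2 for mesenchyme 2 and 4 for mesenchyme 3. Calls over all genes fell from 820 to 142, 241, 551, 192 and 330 in those fits, in the same order.

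Wnt ligands went both ways, with 3 of 12 tested higher in epithelium and 2 lower in epithelium (4 and 3 of 15 without mesenchyme 1). Wnt6 (3.12 ± 0.451, adjusted p = 0.0112), Wnt10a (3.04, adjusted p = 0.0203) and Wnt7b (1.86, adjusted p = 0.0271) were higher in epithelium, and Wnt2 (-4.17 ± 0.690, adjusted p = 0.0164) and Wnt9a (-2.57, adjusted p = 0.00741) lower. Wnt2 read 202, 19.3 and 51.3 units on epithelium 1, 2 and 5, against 1036, 1977 and 1422 on mesenchyme 1, 2 and 3. Epithelium 2 and 5 lay below the filter level of 96.3 units. Wnt2 thus passed the filter mainly through mesenchyme, and the size of its difference is uncertain. All 5 of these called ligands were also past the threshold in the same direction without mesenchyme 1. Only in that fit, Wnt4 was past it as higher in epithelium (4.67 ± 0.662, adjusted p = 0.00438, against 3.71, adjusted p = 0.0558, with all arrays). Wnt5b was past it there as lower in epithelium (-2.12 ± 0.375, adjusted p = 0.0099, against -1.22, adjusted p = 0.413). Neither gene of Wnt secretion passed, the carrier Wls having the larger difference (0.62, adjusted p = 0.163). Of 13 receptors and co-receptors, Fzd6 was higher in epithelium (28896, 31326 and 34775 units against 6638, 5527 and 3578 in mesenchyme, 2.63 ± 0.262, adjusted p = 0.00427). Without mesenchyme 1, Kremen1, a receptor of Dkk proteins, was also higher in epithelium (1.64 ± 0.291, adjusted p = 0.0102, against 1.21, adjusted p = 0.17, with all arrays), and Ror1, a receptor of Wnt5a, was lower (-2.34 ± 0.257, adjusted p = 0.00183, against -1.40, adjusted p = 0.353, with all arrays). Lrp6, the co-receptor that Dkk1 binds, had a difference of 0.10 (adjusted p = 0.84) with all arrays and 0.12 ± 0.232 (adjusted p = 0.813) without mesenchyme 1.

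Among R-spondins, the ligands that strengthen Wnt signals, with their receptors and ligases, Rnf43 (3.81 ± 0.410, adjusted p = 0.00484) and Lgr4 (1.39, adjusted p = 0.0476) were higher in epithelium and Rspo2 lower (-4.25 ± 0.825, adjusted p = 0.0288), with 4 higher and 2 lower of 7 without mesenchyme 1. Those past the threshold only there were Znrf3 (1.73, adjusted p = 0.0063), Lgr5 (1.55, adjusted p = 0.0352) and Rspo3 (-4.78, adjusted p = 0.00169). With all arrays their adjusted p was 0.0803, 0.0661 and 0.0575. Rnf43, a ligase that removes Frizzled receptors, read 964, 997 and 595 units in epithelium against 43.1, 40.1 and 49.9 in mesenchyme, below the filter level, so it passed the filter through epithelium alone and the size of its difference is uncertain. Of 9 other Wnt antagonists tested, Draxin was lower in epithelium (-2.11 ± 0.465, adjusted p = 0.0436). Without mesenchyme 1, Sostdc1, a secreted BMP and Wnt antagonist, was higher in epithelium (1.95 ± 0.366, adjusted p = 0.0125, against 1.05, adjusted p = 0.472, with all arrays). None of 11 beta-catenin targets and feedback genes passed in limma over all arrays. There 3 had an unadjusted p under 0.05, beside 2670 of all 13717 tested genes. Without mesenchyme 1, 1 of 11 passed, the cell cycle gene Ccnd1, which was lower in epithelium (-1.20 ± 0.221, adjusted p = 0.0118, against -1.01, adjusted p = 0.0712, with all arrays). The largest difference over all arrays was that of Cd44 (-1.96 ± 1.05, adjusted p = 0.363), which read 10216 units on mesenchyme 1 and at most 922 elsewhere. Without that array another probe set of Cd44 was the brightest, with a difference of 0.18 (adjusted p = 0.87). The general target Axin2 read 1482, 2084 and 1449 units in epithelium and 1413, 1910 and 2010 in mesenchyme, with overlapping layers (-0.09 ± 0.315, adjusted p = 0.895, interval -0.83 to 0.65), and -0.25 ± 0.273 (adjusted p = 0.639) without mesenchyme 1.

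**Figure D4:**
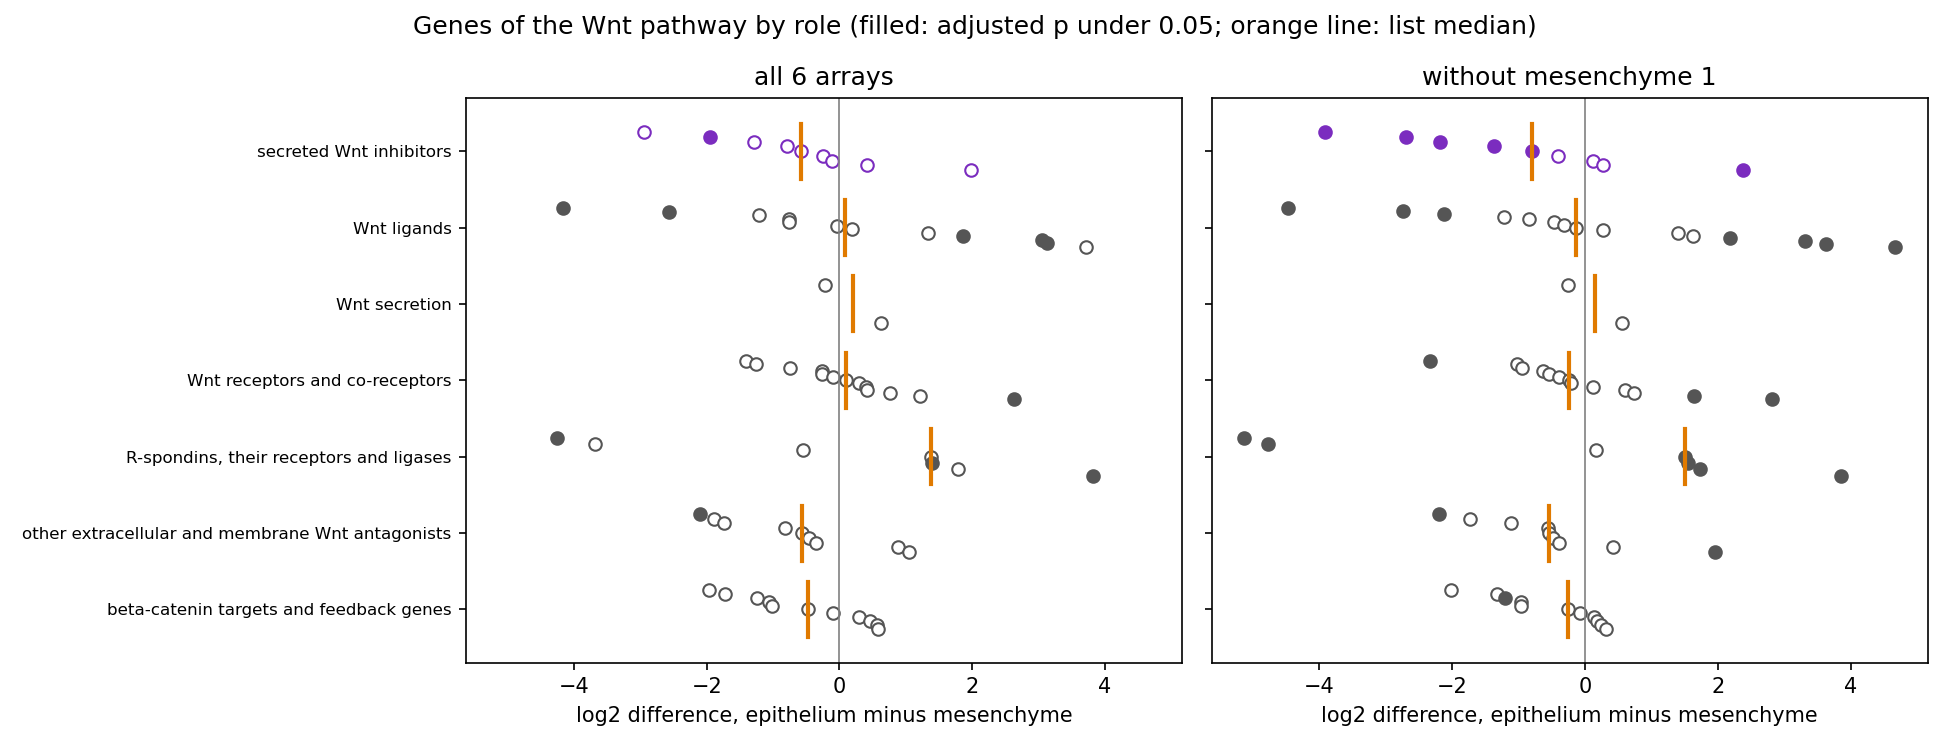
Log2 difference, epithelium minus mesenchyme, of tested Wnt pathway genes by role, with all 6 arrays (left) and without mesenchyme 1 (right). Each point is a gene, filled where adjusted p is under 0.05, and the orange line is the list median, for the inhibitors -0.58 on the left and -0.79 on the right.

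For each tested inhibitor, the gene with the most similar profile was found by the distance between the 6 log2 array values after each gene's mean was subtracted. These matches describe 6 arrays of 2 layers, mesenchyme 1 included, and carry no test. No search was made without mesenchyme 1, on which 7 of the 9 inhibitors differed over 2-fold from mesenchyme 2 and 3. The nearest gene to Dkk1 was Cxcl12, a chemokine of mesenchymal cells, at a distance of 0.23 log2 units, where the median gene lay at 2.91. Dkk2 lay nearest to Eya1, a transcription co-activator of urogenital mesenchyme (0.61, median 3.88), which read 1499, 3445 and 2643 units in epithelium against 1275, 16775 and 20112 in mesenchyme. Frzb lay nearest to Gsg1l (0.80), Sfrp1 to Gulp1 (0.48), Sfrp2 to Ankdd1b (0.26), Sfrp5 to Bmyc (0.28), Dkk3 to Htr7 (0.14), Wif1 to Hint3 (0.15) and Notum to Tmem79 (0.66).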

How the data were processed

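Per the labels' protocols, total RNA was column-purified, amplified and biotin-labelled for the Mouse Genome 430 2.0 array. The deposited table holds 1 intensity (signal) per probe set on a linear scale. The submitters' processing notes name GCOS, the scanner maker's software, without settings. In the deposited table the mean intensity without the top and bottom 2% of probe sets was 1500 on every array. It carries no detection calls, so dim probe sets have no bound.

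Of 45101 probe sets, 64 controls were left out, and 34945 of the rest name 1 gene, 932 several and 9160 none by the platform annotation. Values were quantile normalized after log2(signal + 16), which understates the change of dim genes. Probe sets with a mean above the 40th percentile were kept, and the brightest stood for its gene (13717 genes). The comparison of layers used limma 3.58.1 (R 4.3.3) with a variance trend on intensity and no covariate. P-values were adjusted by Benjamini-Hochberg across every gene tested, and 0.05 was the threshold. The fit without mesenchyme 1 repeats these steps on 5 arrays. Signals per array come from the normalization of all 6. The number of arrays limits the precision.

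The members, lists and tests were chosen with earlier results of these data known. All 10 members are named, with pathway genes past the threshold over all arrays, at most 5 a list, or the largest difference where none passed. Wnt4, Wnt5b, Znrf3, Lgr5, Rspo3, Kremen1, Ror1, Lrp6, Sostdc1, Ccnd1 and Axin2 were named after their values were seen. Gene symbols were matched by gene ID to RefSeq. The scripts were tested on simulated data. Alternatives were other offsets, normalizations, filters, probe set rules and variance models, leaving out each array, and blocking on replicate number.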

Additional observations from a re-analysis of the deposited data

How the results depend on the processing

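Leaving out each array in turn moved the count of all genes past the threshold between 142 and 1975 (820 with all arrays), that of the inhibitors between 0 and 6 (1 with all) and that of the Wnt pathway lists between 2 and 19 (10 with all). With mesenchyme 1 set aside already, an alternative chosen after seeing the data, the ranges were 649 to 3878, 0 to 6 and 11 to 30, a lone mesenchymal array being assumed to vary like the others, and the mean of probe sets gave 11 pathway genes. In limma 0 inhibitors passed with median centring and 0 without the filter (Dkk1 at adjusted p = 0.0507 and 0.0534). In each of these, 3 inhibitors had an unadjusted p under 0.05, beside 2285 of 13709 and 3067 of 18193 tested genes. With the replicate block 0 inhibitors, 0 pathway genes and 0 genes passed (1460 genes and 2 inhibitors at an unadjusted p under 0.05). The labels share only the numbers 1 and 2, and deviations of same-numbered arrays correlated at r = -0.05 and -0.02, so the block was not taken as a pairing. Sfrp2 turned to 0.16 with median centring, and over left-out arrays it ran from -0.79 without mesenchyme 1 to 0.04 without mesenchyme 3. Wif1 ran from -0.36 to 0.28, above 0 without mesenchyme 1 and without epithelium 2 (0.06). Neither passed where its sign turned, and the cause was not tested. The median difference of all genes was 0.12, and 0.23 with median centring. Relative to the 0.12, the inhibitors' differences ran from -3.06 for Frzb to 1.86 for Notum. Over 14 alternatives without mesenchyme 1, Frzb passed in 13, Dkk1 and Dkk2 in 12 each. With the filter at the 60th percentile, Notum was too dim to be tested.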
